A study of Drosophila melanogaster with 4 samples.

Results

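Long stretches of the fly genome in which no LSD1 region was listed are described here. LSD1 was immunoprecipitated with the antibody Q3430 from head nuclei of Oregon-R, a wild-type strain of Drosophila melanogaster at the labelled stage Mixed Adult, and the DNA was sequenced beside input chromatin that had not been precipitated. Whole heads hold many cell types, and the regions are those of their mixture. There were 2 ChIP samples and 2 input samples, each numbered as replicates 1 and 2, and no other genotype, tissue or treatment. The authors' regions of significant enrichment came as 3 lists, namely replicate 1 with 8115 regions, replicate 2 with 9911 and a combined list of the replicate set with 11016. The regions of all 3 lists were merged on the arms 2L, 2R, 3L, 3R and X. A long gap is a stretch of at least 20 kb between 2 consecutive merged regions, outside the 2 Mb next to the centromere. Of 10270 gaps of any length, 686 were long gaps. The long gaps were chosen by the positions of the regions in all 3 lists, so their number and length are a description and carry no test. Separate fly collections for the replicates are not stated in the labels, and their spread may be of technical origin.

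LSD1, encoded in flies by Su(var)3-3, is a demethylase that removes activating methyl marks from histone H3 and acts in complexes with CoREST and histone deacetylases. It is known for a part in the formation of heterochromatin and in the silencing of genes. A stretch without a listed region is one where enrichment over input did not pass the authors' threshold. Such a stretch can hold chromatin with little LSD1, but also sequence to which few reads align, and neither the number of reads per library nor the alignable part of each gap was known here. Their part in the results was not tested.

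Long gaps were few among the gaps but took up much of the arms. They made up 6.68% of all gaps by number and 42.6% of the length of all gaps. In total they spanned 26.8 Mb, or 24.6% of the 109.03 Mb examined. The lower quartile, median and upper quartile of their lengths were 23.5, 29.6 and 42.7 kb, where the median of all gaps was 2.30 kb. A small number of very long gaps held a large share of this length. The 122 gaps of at least 50 kb made up 38.2% of it, the 27 of at least 100 kb made up 14.1%, and 3 exceeded 200 kb. At the length limit, the 5 shortest long gaps measured 20006 to 20096 bp and the 5 longest gaps left out measured 19937 to 19986 bp. Each replicate list by itself left more sequence empty, as it must, since a further list can only shorten or divide gaps, and it also gave more gaps. Replicate 1 alone, without replicate 2, had 1093 gaps of at least 20 kb that spanned 47.6 Mb, and replicate 2 alone, without replicate 1, had 997 that spanned 42.3 Mb (44.9 ± 3.70 Mb, SD, n = 2). The combined list alone had 762 such gaps, spanning 30.6 Mb.

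All 5 arms held long gaps at similar density, with 2R lowest. The share of the arm in long gaps was 20.0% on 2R, 24.8% on 2L, 25.4% on X, 25.8% on 3L and 26.1% on 3R. Arm 2R had 101 long gaps (5.28 per Mb) and 3L had 155 (6.88 per Mb). The longest gap of an arm ranged from 109.2 kb on 3L, at 3L:18322092-18431259, to 245.6 kb on 2R. X had 6.81 long gaps per Mb and the 4 autosome arms had 6.17, a ratio of 1.10, but the replicates did not share this direction. The ratio was 0.954 for the gaps of replicate 1 alone and 1.15 for those of replicate 2 alone (without replicate 2 and without replicate 1). Measured as the share of the arm in long gaps, the ratio was 1.04 in the merged lists, 0.890 in replicate 1 and 1.32 in replicate 2.

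**Figure D1:**
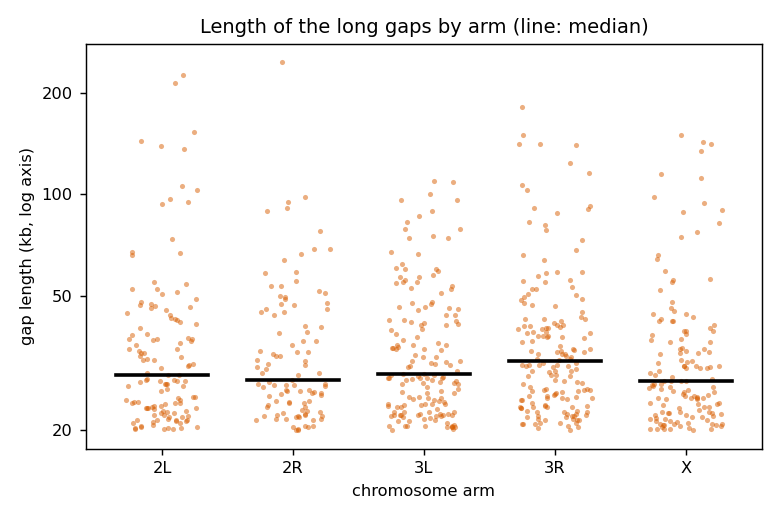
Length of each of the 686 long gaps (points, kb, log axis) on the 5 chromosome arms, with the median of each arm as a black line. Medians lie between 27.9 kb on X and 32.0 kb on 3R, and the longest single gap, of 245.6 kb, is on 2R.

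The 10 longest gaps lay on 4 arms, with 4 on 2L, 3 on 3R, 2 on X and 1 on 2R. The longest, 2R:2135570-2381139, measured 245.6 kb in the merged lists, 249.7 kb in replicate 1 alone and 251.7 kb in replicate 2 alone. It began 135.6 kb from the part of 2R that was left out beside the centromere. Of the other 9, the nearest to such a part was 2L:15275868-15489679, at 5522 kb. That gap measured 213.8 kb, with 216.6 kb in replicate 1 and 214.3 kb in replicate 2. Between them ranked 2L:11273258-11498359 at 225.1 kb, which reached 265.0 kb in replicate 1 and 243.1 kb in replicate 2. Its right border was a stretch listed in the combined list only.

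The fourth, 3R:15053329-15234575, measured 181.2 kb and was bounded on both sides by stretches found in all 3 lists, of 8781 and 16943 bp. Its length in the replicates alone was 184.4 and 182.1 kb. Both replicates gave nearly the same borders there. For 2L:5367136-5519461, of 152.3 kb, each replicate alone reached 174.4 and 174.3 kb, and its right border too was listed in the combined list only. The gap 3R:19213989-19363772 measured 149.8 kb, with 152.9 and 149.8 kb in replicates 1 and 2, and X:7632201-7781951 measured 149.8 kb, with 152.2 and 157.1 kb. At 2L:12548093-12692019, of 143.9 kb, the left border was a stretch of 34.1 kb, so that one of the longest gaps lay directly beside a broad LSD1 domain. The gap X:7358892-7501544 was the one on which the replicates differed most. It measured 142.7 kb in the merged lists and in replicate 1, and 267.8 kb in replicate 2, the longest gap of that list. The tenth, 3R:12482333-12623407, measured 141.1 kb, and the replicates alone gave 141.5 and 141.3 kb. In 7 of the 10, the gap of each replicate alone was less than 10% longer than the merged gap.

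**Figure D2:**
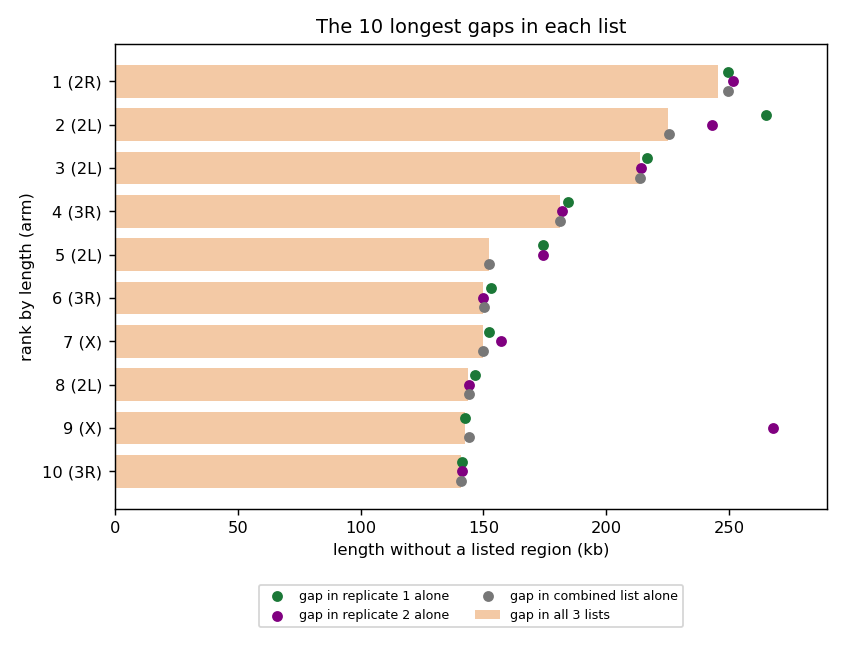
Length in kb of the 10 longest gaps in the merged lists (bars) and of the gap around them in each list alone (points), ordered by rank with the arm in parentheses. Points lie close to the bar ends except at ranks 2 and 5 and, for replicate 2, at rank 9, where the gap reached 267.8 kb.

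The borders shifted between the lists. Over all 686, the gap of replicate 1 alone was 1.28 times as long as the merged gap at the median and that of replicate 2 alone 1.14 times (1.21 ± 0.095, SD, n = 2). Both replicates alone had a gap less than 10% longer than the merged one at 126 of 686 (18.4%). In kb, the gap of replicate 1 alone was longer by a median of 8.80 for members under 30 kb, 12.8 from 30 to 50 kb, 5.04 from 50 to 100 kb and 3.18 from 100 kb. In replicate 2 these medians were 5.63, 4.22, 3.98 and 1.15 kb. The chromosomes differed in which replicate left more sequence empty. On X, replicate 2 had the longer gap around 106 of 139 members, and on the autosomes replicate 1 had the longer gap around 362 of 547. Median factors on X were 1.16 in replicate 1 and 1.56 in replicate 2, and on the autosomes 1.31 and 1.07. The lists differed in the same way over the whole chromosomes, with 29.4% of X covered in replicate 1 and 21.5% in replicate 2, and 27.8% and 30.8% of the autosomes.

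How far a long gap found in one replicate held in the other was read from gaps of one list against the regions of the other, which that choice did not use. Gaps of at least 20 kb in replicate 1 alone had 7.34% of their length covered by replicate 2 regions, and those of replicate 2 alone had 5.06% covered by replicate 1 regions. Over the whole arms these lists covered 29.1% and 28.1%. The mean in the gaps was 6.20% ± 1.61 (SD, n = 2), against 28.6% ± 0.692 for the arms, a difference larger than the spread between the replicates. On X the order of the directions was reversed, with 3.23% of the gaps of replicate 1 and 8.97% of those of replicate 2 covered, against 8.18% and 3.87% on the autosomes. With 1 value from each direction, no test was run.

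Coverage by the other replicate was lower the longer the gap. Gaps of replicate 1 of 20 to 30 kb were covered over 10.7% of their length by replicate 2, those of 30 to 50 kb over 8.52%, those of 50 to 100 kb over 5.96% and the 56 of at least 100 kb over 3.12%. The same classes of replicate 2 gave 7.56%, 5.39%, 4.26% and, for the 48 of at least 100 kb, 1.95%. Low coverage was not particular to gaps of at least 20 kb, since those of 5 to 20 kb were covered over 16.3% and 13.0%. Gaps under 5 kb had 36.4% and 36.9% covered, above the level of the arms. Of the gaps of at least 20 kb, 183 of 1093 (16.7%) of replicate 1 and 260 of 997 (26.1%) of replicate 2 held no base covered by the other list. On X these shares were 34.5% and 9.57%, on the autosomes 12.8% and 30.5%, and among gaps of 5 to 20 kb on all arms 26.3% and 32.8%. Most gaps of at least 20 kb thus met the other replicate over at least 1 bp. This includes gaps met only at an edge, where the border of the same region shifted between the lists. Regions lying wholly inside gaps of the other replicate were sparser than on the whole arms at every gap length. In gaps of at least 100 kb, replicate 2 had 15.6 such regions per Mb inside gaps of replicate 1. Replicate 1 had 7.36 inside gaps of replicate 2, where the whole arms had 85.9 and 69.4. In gaps of 20 to 30 kb these values were 42.3 and 27.5. Shorter gaps were not set apart by this measure, with 47.7 and 31.8 from 5 to 20 kb and 23.7 and 19.6 under 5 kb. The same order of the classes from 20 kb upward was seen on the autosomes and on X in both directions.

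**Figure D3:**
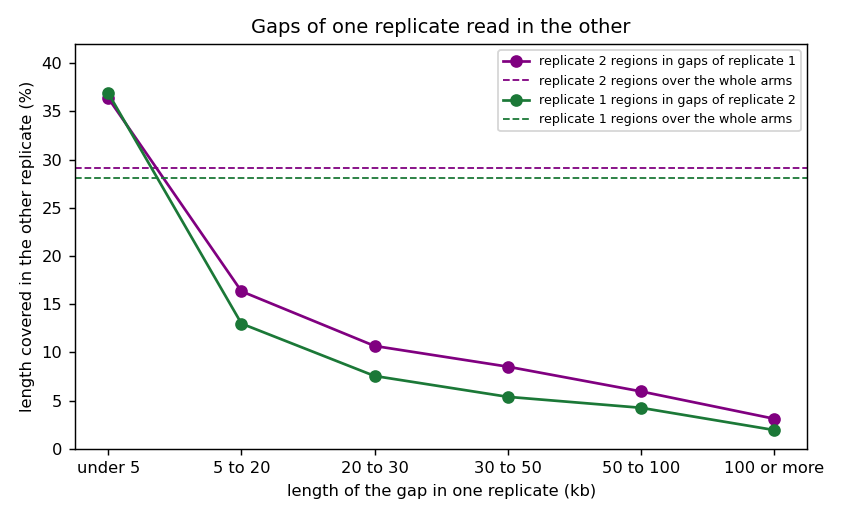
Share of the length of gaps of one replicate that was covered by regions of the other replicate (%), by gap length in kb, with the share of the whole arms as dashed lines. From 20 to 30 kb upward all points lie under 11%, against 28.1% and 29.1% for the arms, and gaps under 5 kb lie above the arms at 36.4% and 36.9%.

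Regions that one replicate listed inside a long gap of the other were narrow. Replicate 2 had 1491 regions wholly inside gaps of replicate 1, with a median width of 1659 bp, where its other regions had 2275 bp. Replicate 1 had 829 inside gaps of replicate 2, with 1688 bp, against 2300 bp. A width of 10 kb or more was reached by 0 of the 1491 and by 1 of the 829, whereas 5.30% and 8.62% of the other regions were that wide. The choice itself favours narrow regions, since any region that touched the other list was counted among the others. A region must also be shorter than the gap that holds it. How much of the difference in width this accounts for was not tested. The median authors' score, whose scale no header names, was 0.81 inside and 0.84 outside in replicate 2, and 0.71 inside and 0.69 outside in replicate 1. On the autosomes alone it was lower inside in both, at 0.80 against 0.82 in replicate 2 and 0.63 against 0.65 in replicate 1, while on X it was 0.95 against 0.93 and 0.85 against 0.87. X regions scored higher than autosome regions and held 336 of the 829, so the pooled direction of replicate 1 differs from that on each chromosome class.

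Long gaps tended to follow one another. The next gap along the arm was again a long gap after 96 of 686 (14.0%), where long gaps were 6.68% of all gaps. Long gaps with at most 10 kb between them were then joined into runs, and 226 of 686 (32.9%) belonged to 99 runs. The sequence between them could hold more than 1 merged stretch, with shorter gaps between the stretches. The 6.68% is not a background for this share, and none was worked out for it. Of these runs, 79 had 2 gaps, 17 had 3, 1 had 4 and 2 had more. A span of at least 200 kb was reached by 7 of all runs and single gaps.

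The run with the most gaps was 3R:2486899-2891739, where 7 long gaps made up 96.7% of 404.8 kb. By choice a long gap holds no region of any list, so only the 13.4 kb between these gaps could be covered. The same limit holds for every run, and low coverage of a run is not a separate result. Replicate 1 covered 1.98% of this span and replicate 2 covered 2.86%. Of the 6 merged stretches inside it, 3 were listed in both replicates, 2 in replicate 2 without replicate 1, and 1 in the combined list only. The strongest of them, 3R:2644090-2649408 of 5319 bp, scored 1.12 and 1.08 in the replicates and 1.01 in the combined list. Its other stretches were 1241 to 1901 bp wide. Replicate 1 listed nothing in the part to the right of that stretch, where its own gap was 250.5 kb long.

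A second run, 2L:5342421-5723529, had 6 long gaps over 381.1 kb, among them one of the 10 longest, and 96.0% of it lay in long gaps. Replicates 1 and 2 covered 1.05% and 2.82% of it. Of its 6 stretches, 2 were listed in both replicates and 3 in replicate 2 without replicate 1. At 2L:5364983-5367135 the replicates scored 0.86 and 0.79 and the combined list 0.81, the highest combined score in this run.

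The third run, 3R:12482333-12782707, had 4 long gaps over 300.4 kb, and they made up 98.1% of it, the highest share of these 3 runs. Only 3 narrow stretches broke it. The first, 3R:12623408-12625648, was 2241 bp wide and had high scores in every list. The replicates gave 1.49 and 1.31 and the combined list 1.42, where the medians of these lists were 0.69, 0.83 and 0.50. The second, 3R:12694018-12696011, scored 0.21 and 0.83 in the replicates and 0.30 in the combined list. The third, 3R:12744635-12746020, was absent from replicate 2 and scored 0.61 in replicate 1. The runs on 3R lie, by general knowledge of the release 5 map, about where the Antennapedia complex and the bithorax complex are found. These are the clusters of homeotic genes that set segment identity and that Polycomb proteins are known to hold silent. This placement is background only and was not checked, because no gene annotation of that release was used here.

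**Figure D4:**
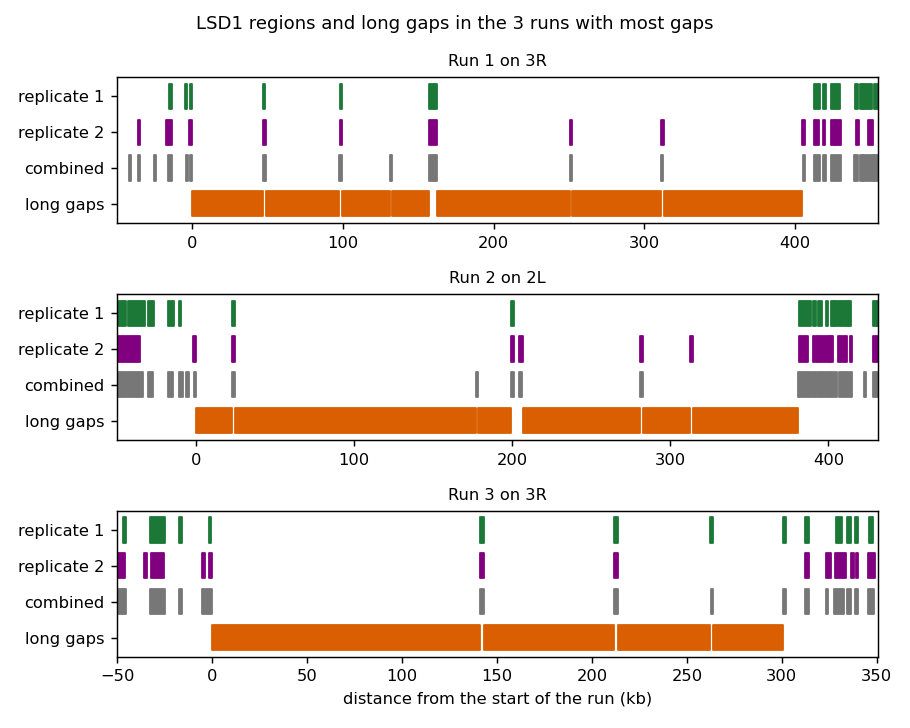
Regions of replicate 1, replicate 2 and the combined list and the long gaps (bars) in the 3 runs with most gaps, against distance in kb from the start of each run, with 50 kb on either side. Each run is crossed by 3 to 6 merged stretches, of 1241 to 5319 bp, over spans of 404.8, 381.1 and 300.4 kb.

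Some runs held no region of a replicate between their outer edges, namely 35 of 99 in replicate 1, 34 in replicate 2 and 14 in both. However, 79 of the 99 runs had only 2 gaps, with little between them that could be listed. Of the 96 stretches that stood between 2 long gaps, 20 (20.8%) were in the combined list only, against 20.3% of all merged stretches. The counts of empty runs are therefore not read as a trait of the runs. The run 3L:5360326-5567937 had 3 long gaps over 207.6 kb, with 0 regions in replicate 1 and 1 region in replicate 2, which covered 0.64% of it. The reverse was seen at X:13909915-14093377, of 183.5 kb, where replicate 1 had 1 region that covered 1.00% and replicate 2 had 0. Both were named after their values were seen.

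At their borders, long gaps met merged stretches that were much like others. A total of 1276 stretches bounded long gaps, and 502 of them (39.3%) were listed by both replicates, where 40.8% of all 10272 stretches were. All 3 lists held 500 of them (39.2%, against 40.7%). Stretches found in a single list were 415 (32.5%), against 29.7% of all, with 251 in the combined list alone (19.7%, against 20.3%), 37 in replicate 1 alone (2.90%, against 2.19%) and 127 in replicate 2 alone (9.95%, against 7.24%). Broad stretches were rarer at the borders. A width of at least 10 kb was found in 88 of 1276 (6.90%), against 9.75% of all, and of at least 20 kb in 23 (1.80%), against 3.16%. Stretches under 2 kb were 645 (50.5%), against 44.1%. Of the 96 stretches that stood between 2 long gaps, 60 (62.5%) were under 2 kb wide and 38 (39.6%) were listed by both replicates.

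For scores, the region of each list nearest to each edge of a long gap was taken as the border region of that list. It lay inside the merged stretch that adjoins the gap at 55.9% and 63.7% of 1372 edges for the replicates and at 87.0% for the combined list, and farther away at the others. Over all arms together, scores of border regions did not differ from others in a common direction. In replicate 1 the median authors' score was 0.702 for 1131 border regions and 0.689 for the other 6438, and in replicate 2 it was 0.830 for 1164 and 0.835 for 8198. The difference, border less other, was 0.013 and −0.0049, a mean of 0.0040 ± 0.013 (SD, n = 2), which is smaller than the spread between the replicates. The combined list gave 0.501 and 0.503. On X alone the difference was 0.031 and 0.015 in replicates 1 and 2, but −0.0020 in the combined list. On the autosomes these values were 0.0033, −0.0081 and 0.0019. With border regions of all arms restricted to adjoining stretches, a choice made after seeing the data, the differences were 0.034, −0.013 and 0.0022. Border regions were narrower than others in each list, with medians of 2075 against 2214 bp and 1968 against 2156 bp in the replicates and 1933 against 2043 bp in the combined list. They were also less often overlapped by the other replicate, at 70.4% against 76.9% in replicate 1 and 62.2% against 71.4% in replicate 2. Regions of the combined list were overlapped by both replicates about equally often, at 43.4% against 44.0%. Restricted to adjoining stretches, the medians and shares kept these directions in the replicates, with 70.0% against 76.5% and 61.6% against 71.1% overlapped, and the combined list gave 44.1% against 44.0%. No test was run on these differences, since the regions share the lists that chose the gaps.

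Among border regions of the combined list, the highest score was 3.07 at 3L:19705512-19706552, of 1041 bp, but this region was 22023 bp from the long gap 3L:19643695-19683488 and did not adjoin it. The next, 2.47 at 3L:18529992-18531062, of 1071 bp, adjoined the long gap 3L:18495035-18529991. Neither was overlapped by a region of a replicate. The third, 1.91 at 2L:20119922-20122978, was listed in both replicates with 1.88 and 2.00. The lowest were 0.0079 at 3R:12322566-12324234, which replicate 1 listed at 0.022, and 0.070 at 3L:16224224-16226006 and 0.078 at 2R:20825264-20826714, which replicate 2 listed at 0.37 and 0.42. Of these 6 regions, 1 was listed by both replicates, where 43.4% of all border regions of the combined list were overlapped by both. The 6 were picked as extremes of score, so their count is not read as a trait of the borders.

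Beyond the border, LSD1 regions were sparser than on the arms as a whole. In the first 2 kb outward, which hold the border itself, replicate 1 covered 45.1% and replicate 2 covered 50.9%. From 2 to 10 kb these values were 24.0% and 25.4%, and from 10 to 20 kb 23.7% and 25.5%, below the 28.1% and 29.1% of the arms. They were 24.8% and 25.9% from 20 to 50 kb and 26.5% and 27.5% from 50 to 100 kb. Both replicates thus stayed below their arm values over the last of these distances as well, by less than near the gap. Other long gaps count as uncovered in these shares.

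**Figure D5:**
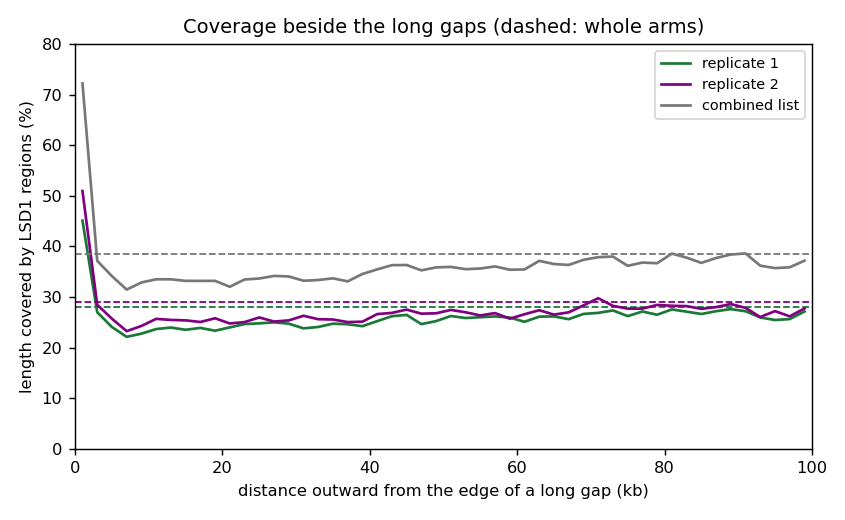
Share of sequence covered by LSD1 regions (%) in steps of 2 kb outward from both edges of the long gaps, up to 100 kb, for each list, with the share of the whole arms as dashed lines. After a peak at the border, coverage from 2 to 20 kb lies below the dashed line in each list.

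Along the arms, long gaps were spread rather evenly. Divided into 4 equal parts from the telomere side, the arms together had 24.5%, 24.6%, 25.9% and 23.3% of their length in long gaps. Single arms varied more, from 18.5% in the third part of X and 17.5% in the centromere-side part of 2R to 31.7% in the telomere-side part of X. In the replicates alone the 2 parts of X differed less. The third and the telomere-side part had 37.6% and 42.1% in replicate 1, and 45.8% and 48.8% in replicate 2. The centromere-side part of 2R had the lowest share of any part in each replicate, at 30.5% and 26.0%. None of 107 windows of 1 Mb was without a long gap, and the median window had 23.0% of its length in them. Windows with at least 50% numbered 3. These were 3R from 2 to 3 Mb with 57.8%, which holds the run with the most gaps, 3R from 11 to 12 Mb with 53.5% and X from 4 to 5 Mb with 52.7%. In the first of them, replicates 1 and 2 covered 13.4% and 13.9%, and in the third 18.1% and 14.1%. At the other end, 3R from 10 to 11 Mb had 2.81% of its length in 1 long gap and was covered over 39.4% and 44.9% by the replicates. The window with the lowest share of long gaps thus lay directly beside one of the 3 with the highest.

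A further 3 entries of the combined list carried the type for depletion and an authors' score below 0. They were used neither in the merged lists nor in the choice of gaps. The entry 2R:18693734-18695424, with a score of −0.040, reached 484 bp into the long gap 2R:18694941-18740801. The entry 3R:4769944-4771476, with the lowest score of −0.14, ended 318 bp before the long gap 3R:4771795-4804861. The third, 3R:5618204-5619904, scored −0.0053 and lay 117704 bp from the nearest long gap. All 3 were overlapped by an enriched region of replicate 2, with scores of 0.55, 0.32 and 0.45, and 1 of them by an enriched region of replicate 1, with a score of 0.21. All or part of each entry was therefore typed as depleted in the combined list and as enriched in a replicate list. Since long gaps hold no enriched region by choice, none of these entries could lie wholly inside one.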

How the data were processed

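LSD1 ChIP-seq of fly heads was given as 3 region lists. Per the submitters' processing notes reads were aligned with Bowtie 0.12.7, and per the file headers positions follow FlyBase release 5. Each region carries the authors' deposited score, whose scale the headers do not name. For the region caller and its threshold, the sources used here give no name or value. The score was used only within a list. Each replicate list has the same-numbered input sample named as its input, per the labels. Read totals per library were not known here, and no counting interval is reported.

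Regions of the 3 lists on 5 arms were merged (touching or overlapping by at least 1 bp), and gaps of at least 20000 bp were taken, leaving out 2 Mb at the centromere side. A gap had to lie wholly outside that part. Computation used Python 3.11.15 with numpy 2.4.6 and pandas 2.3.3, and the interval code was tested on simulated data. The gene table supplied follows release 6, so no gap was assigned to a gene and no sequence is shown. Named regions are the 10 longest gaps, the longest of each arm, the 5 on either side of the length limit, the 3 runs with most gaps, the 3 highest and 3 lowest borders by combined score, and all depleted entries. The members and lists were chosen with earlier results of these data known. Values are descriptions over 2 replicates, and no test was run.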

Additional observations from a re-analysis of the deposited data

How the results depend on the processing

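Of 83 alternative values, 7 turned the direction and were counted as such even where they lay within the spread between the replicates. Of the others, 48 stayed within that spread (for the number of gaps, within 1.5 times) and 28 moved beyond it. The ratio of X to autosomes in long gaps per Mb turned to 0.952 with gaps of at least 30 kb and to 0.926 with the upper 75% of regions by score. It ranged from 0.954 to 1.15 when 1 replicate and the combined list were left out. By construction, a higher length limit or fewer regions changes how many gaps there are and how long. Gaps of at least 30 kb numbered 339 (18.5 Mb, median 42.8 kb), and gaps of at least 15 kb spanned 32.4 Mb (median 23.7 kb). With 1 replicate and the combined list left out there were 997 to 1093 gaps, of 42.3 to 47.6 Mb and a median of 32.2 to 33.7 kb. Total length was 32.6 Mb (median 30.9 kb) with no centromere-side part left out, 30.6 Mb with the combined list only, 32.9 Mb (30.9 kb) with both replicate lists only, 37.0 Mb (32.2 kb) with regions overlapped by another list, and 32.6 Mb (30.95 kb) with the upper 75% by score. With 1 replicate list in place of the combined list, border scores less others (−0.0021 in the combined list) were −0.0049 to 0.0130, the width ratio was 0.912 to 0.937, and 62.2% to 70.4% of border regions were overlapped by the other replicate. The score difference also turned to 0.0032 with gaps of at least 15 kb, to 0.0067 with no centromere-side part left out and to 0.0022 with regions in adjoining stretches. These last values lay within the spread between the replicates (SD 0.013), so they are changes of sign near 0. Members in runs were 24.8% with up to 5 kb between members and 45.9% with up to 20 kb. They were 42.5% with gaps of at least 15 kb and 18.9% with gaps of at least 30 kb. The next gap was also a member in 18.1% and 9.73% at 15 and 30 kb, where members were 9.84% and 3.30% of gaps. The alternatives for adjoining stretches, for the next gap and for gaps of one replicate read in the other were chosen after seeing the data. No paired analysis was possible because no result comes from a test between groups. Depth is unknown, so gaps caused by too few reads could not be told apart from gaps with little LSD1.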
